A study of Homo sapiens with 6 samples.

Results

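The NRF2 antioxidant response genes are 10 genes chosen by name, with no measured value used in the rule. They are the regulator pair NFE2L2 and KEAP1, and the response genes NQO1, HMOX1, GCLC, GCLM, TXNRD1, SRXN1, AKR1C1 and AKR1B10. All 10 were found among the 33542 genes of the deposited count table, and 9 passed the filter on low counts that left 18685 genes for testing. The tenth, AKR1B10, stood at 2 to 6 counts per library and was not tested. RNA was sequenced from T24 cells, an established human line of urinary bladder tumor cells, transfected by a lipid reagent with a control small interfering RNA (siNC) or with one directed at TRAIP (siTRAIP). TRAIP encodes an E3 ubiquitin ligase, and the study asks what lies downstream of it in bladder cancer. Each group had 3 libraries and all 6 came from the same cell line and the same growth medium. The labels name 1 knockdown reagent, siTR2, and do not say whether replicates are separate cultures. The p-values therefore speak of the spread among these 6 libraries, which may be technical.

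NRF2, the protein of NFE2L2, is a transcription factor of the cap'n'collar family. In unstressed cells KEAP1 holds it in a CUL3 ubiquitin ligase complex that sends it to the proteasome. Oxidants and electrophiles modify cysteines of KEAP1, NRF2 then accumulates, pairs with a small MAF protein and binds antioxidant response elements near genes for glutathione synthesis, thioredoxin recycling, quinone and carbonyl reduction, heme breakdown and NADPH supply. These transcripts are therefore commonly read together as a measure of the pathway, although several of them also answer to other factors. NRF2 activity is regulated largely through protein stability, which transcript counts do not measure.

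The core of the antioxidant response element was searched as TGACNNNGC, on both strands, in the RefSeq windows that run from 250 bases before to 50 bases after each annotated start (GRCh38.p14). Windows were available for 8 of the 10 members (11 windows, since NFE2L2, KEAP1 and TXNRD1 have 2 starts each). HMOX1 and AKR1B10 had no entry. The core was present for 3 of the 8 members, KEAP1, GCLM and TXNRD1, and in 4 of the 11 windows of the 8 members. Of all 35116 windows 13.3% held it, and of 27305 genes 16.1%. These are shown because they place the element letters at genes whose transcripts were measured, 1 of which (KEAP1) did not pass the test described below and 2 of which (GCLM and TXNRD1) did. Each line gives the gene's own strand, 5′ to 3′, with the core in capitals and 12 bases on either side. A core that lies on the opposite strand reads as its reverse complement.
KEAP1, chr19:10502805-10502837, minus strand, core from -54 to -46: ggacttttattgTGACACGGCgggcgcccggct
KEAP1, chr19:10502782-10502814, minus strand, core from -31 to -23: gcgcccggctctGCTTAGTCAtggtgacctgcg
GCLM, chr1:93909444-93909476, minus strand, core from -34 to -26: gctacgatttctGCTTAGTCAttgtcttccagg
TXNRD1, chr12:104215668-104215700, plus strand, core from -99 to -91: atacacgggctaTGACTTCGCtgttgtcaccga
TXNRD1, chr12:104215759-104215791, plus strand, core from -8 to 1: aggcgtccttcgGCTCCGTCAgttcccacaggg
TXNRD1, second start, chr12:104286918-104286950, plus strand, core from -102 to -94: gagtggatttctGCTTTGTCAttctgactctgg
Positions count from the start site of the window that holds the core, whose first transcribed base is 1. Both KEAP1 cores lie in the window at chr19:10502722-10503021. The window of its other start, at chr19:10503307-10503606, held none. The opposite-strand core of KEAP1 and the core of GCLM were the same 9 letters, TGACTAAGC, at -31 to -23 and -34 to -26. Among the pathway genes described further on, SLC3A2, GSTO1, IDH1 and PGD also had the core in a window. No match was found for the other pathway genes described there, and 16.1% of all genes held the core.
A match describes the letters of the window and is not evidence of binding, and elements farther from the start site were not searched.

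The knockdown was read first from TRAIP itself, in CPM (the count divided by the library size after scaling by TMM factors, edgeR's normalization). TRAIP stood at 26.6, 28.3 and 28.4 CPM in siNC and at 12.5, 14.7 and 11.6 CPM in siTRAIP, a fold of 0.465 (edgeR adjusted p = 6.74e-10). The libraries held between 39111793 and 70439496 gene counts, both extremes being siTRAIP libraries. The epithelial keratin genes KRT7, KRT8 and KRT18 were abundant (KRT8 at 1520 to 1713 CPM), and KRT19 was lower, at 18.8 to 23.25 CPM. EPCAM stood at 1.08 to 2.09 CPM, and the epithelial cadherin gene CDH1 was at 0 in 4 libraries and at most 0.101 CPM. The urothelial differentiation list summed to 21.7 to 24.6 CPM, of which PPARG made up most, at 17.5 to 20.3 CPM. In that list FOXA1 stood at 2.33 to 3.5, UPK2 at 0.448 to 1.06 and GATA3 at 0.0349 to 0.374 CPM. UPK1A, UPK3A, KRT5 and TP63 stayed under 0.1 CPM, and UPK1B and KRT20 had no row in the count table. None of the list's 4 tested genes passed in edgeR, nor at an unadjusted p under 0.05. The summed level of 6 epithelial markers was 3479 to 3538 CPM in siNC and 3172 to 3466 CPM in siTRAIP. Of the 5 epithelial markers tested, KRT7 was called lower (log2 fold change -0.18, edgeR adjusted p = 0.00375) and none higher. Endothelial and leukocyte markers summed to at most 0.211 CPM in any library, and fibroblast markers to 1.08 to 1.4 CPM except in siTRAIP replicate 3, at 5.18 CPM. DCN and LUM of the fibroblast list had no row in the count table. In siTRAIP replicate 3 the collagen gene COL1A1 made up 4.26 CPM of the sum. PDGFRB, at 0.218 CPM in siTRAIP replicate 3, lay within its siNC range of 0 to 0.244 CPM. That library also differed most from its group, with a chi-square per degree of freedom of 17.4 and 18.0 against the other siTRAIP libraries and of 3.35 to 7.93 in other pairs. Calls that depend on it are named beside the result.

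Every tested NRF2 gene had a lower mean after TRAIP knockdown. Of the 9 tested members 8 passed the test and fell, 1 did not pass and none rose (edgeR quasi-likelihood test, adjusted p under 0.05 over all 18685 genes). Among all tested genes, not matched to the members for level, 12.8% passed, 7.47% higher and 5.34% lower in siTRAIP. This split turned with the scaling: 1396 genes were higher and 997 lower with TMM factors, 838 and 2050 on total counts alone, and 454 and 1067 with limma on log2(RPKM + 0.1), where all genes had a median of -0.06 and the members kept their direction. No member was higher at an unadjusted p under 0.05 either, nor by DESeq2 or limma. The 8 that fell also had groups that did not overlap, as did 29.1% of all tested genes in either direction. The falls were small: folds ran from 0.784 for GCLC to 0.903 for GCLM, and the median log2 fold change of the 9 was -0.24, against -0.002 over all genes. The members were named with earlier results of these data known, so their count is a description of these genes and was not tested as a set. By DESeq2 6 of them were called lower, and without 1 library the number ran from 4 (without siTRAIP replicate 1) to 6, with 5 without siNC replicate 1 or 3 and 6 without siTRAIP replicate 3.

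**Figure D1:**
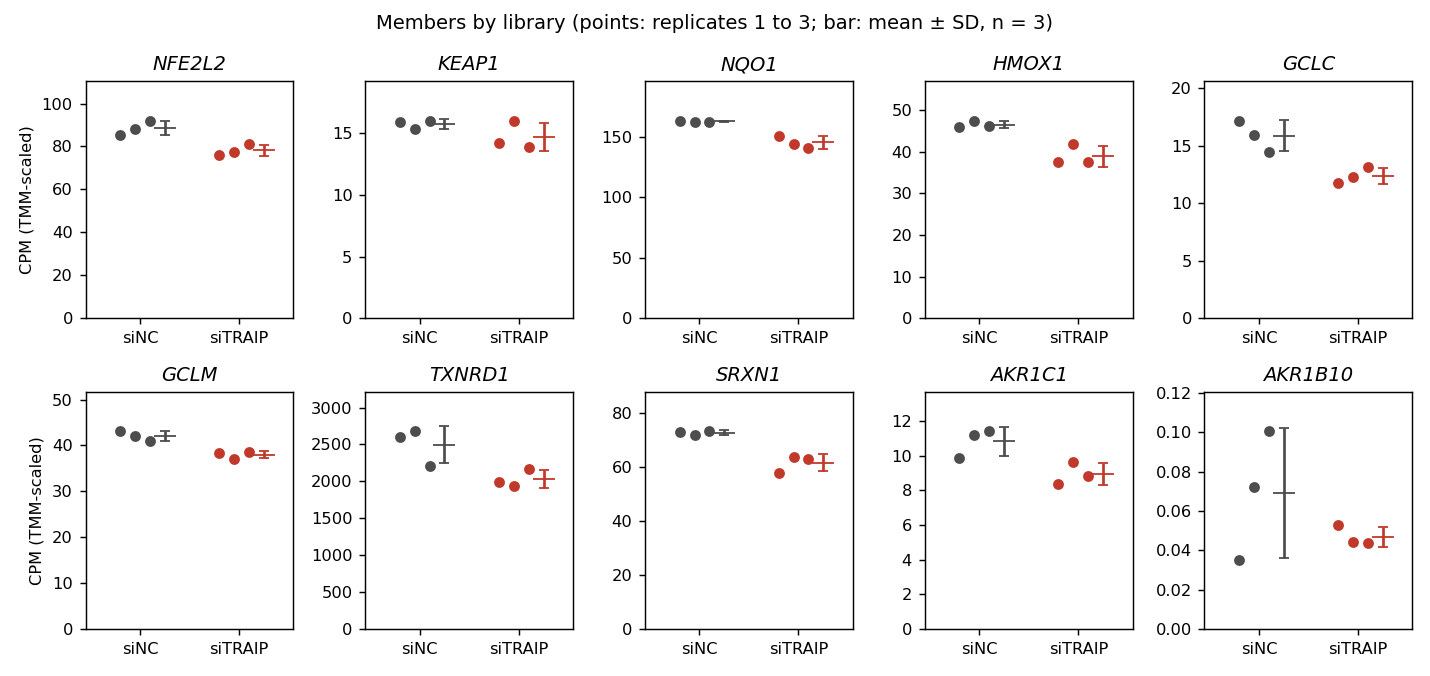
CPM (TMM-scaled, each axis from 0) of the 10 members in 3 siNC libraries (grey) and 3 siTRAIP libraries (red), with mean ± SD beside the points. In 8 panels every red point lies below every grey point; KEAP1 overlaps, and AKR1B10 is near 0 in all 6 libraries.

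NFE2L2 and KEAP1, the regulator pair, differed in their call. NFE2L2 (chromosome 2, 177227595 to 177392697, minus strand, in GRCh38 coordinates as for all genes here) stood at 85.6, 88.0 and 92.1 CPM in siNC replicates 1 to 3 and at 76.2, 77.2 and 81.0 CPM in siTRAIP replicates 1 to 3. The highest siTRAIP library thus lay below the lowest siNC library. edgeR gave a fold of 0.883, or -0.18 ± 0.05 in log2 units (SE, adjusted p = 0.00927). It no longer passed when siNC replicate 3 was left out (-0.15, adjusted p = 0.0587), nor without siTRAIP replicate 1 (-0.16, adjusted p = 0.0547). Of the exonic bases of NFE2L2, 20.9% belong also to other genes of the deposited table, among them AGPS on the opposite strand. How reads in such bases were assigned is not stated, so its count is uncertain.

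KEAP1 (chromosome 19, 10486120 to 10503741, minus strand), the adaptor that delivers NRF2 for degradation, gave 15.9, 15.4 and 16.1 CPM in siNC and 14.2, 16.0 and 13.9 CPM in siTRAIP. siTRAIP replicate 2 lay within the siNC range and the other siTRAIP libraries below it. The estimate of -0.10 ± 0.07 in log2 units (SE, edgeR adjusted p = 0.408) had a 95% interval from -0.25 to 0.04, which includes 0 and also the estimate for NFE2L2. Whether NFE2L2 and KEAP1 changed by different amounts was not tested.

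Glutathione is made in a first, rate-limiting step by glutamate-cysteine ligase, whose catalytic subunit is encoded by GCLC and whose modifier subunit by GCLM. GCLC (chromosome 6, 53497341 to 53616970, minus strand) had the lowest fold of the tested members. It was measured at 17.2, 15.9 and 14.5 CPM in siNC and at 11.7, 12.3 and 13.2 CPM in siTRAIP. The spread within siNC was 8.5% of the mean, yet the lowest siNC library stayed above the highest siTRAIP library. Its fold was 0.784, or -0.35 ± 0.08 in log2 units (SE, edgeR adjusted p = 0.00279). It passed in 17 of 17 alternatives, with values from -0.42 to -0.26.

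GCLM (chromosome 1, 93885205 to 93909456, minus strand) was the least changed of the genes that passed. Its libraries gave 43.1, 42.0 and 41.0 CPM in siNC and 38.3, 37.1 and 38.5 CPM in siTRAIP, so that the groups were tight and separate. The difference came to -0.15 ± 0.05 in log2 units (SE, edgeR adjusted p = 0.0482). This call lay at the threshold: it was kept in 7 of 17 alternatives and lost in 10, among them DESeq2 (adjusted p = 0.073), the fit with the replicate number as a block (0.0742) and every fit that left out a library other than siTRAIP replicate 3 (0.0651 to 0.201).

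Thioredoxin reductase and sulfiredoxin restore oxidized thioredoxin and overoxidized peroxiredoxins. TXNRD1 (chromosome 12, 104215779 to 104350305), the cytosolic thioredoxin reductase, was by far the most abundant member, at 380 ± 35.5 RPKM in siNC (SD, n = 3). It gave 2600, 2679 and 2211 CPM in siNC and 1987, 1936 and 2170 CPM in siTRAIP. siNC replicate 3 was the lowest control and siTRAIP replicate 3 the highest knockdown library, and they came close without crossing. The fold was 0.814, or -0.30 ± 0.07 in log2 units (SE, edgeR adjusted p = 0.0185). It did not pass when any 1 of 4 libraries was left out: siNC replicate 1 (-0.27, adjusted p = 0.0511) or siTRAIP replicate 1 (-0.28, adjusted p = 0.112), 2 (-0.27, adjusted p = 0.0572) or 3 (-0.35, adjusted p = 0.163).

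SRXN1 (chromosome 20, 646615 to 653370, minus strand), the sulfiredoxin gene, gave 73.2, 71.9 and 73.3 CPM in siNC and 57.9, 63.9 and 62.8 CPM in siTRAIP. The siNC libraries had a coefficient of variation of 1.1%, and all siTRAIP libraries were lower. The fold of 0.847, or -0.24 ± 0.05 in log2 units (SE, edgeR adjusted p = 9.97e-04), passed in 17 of 17 alternatives. A same-strand gene of the table with only a clone name covers 85.0% of the exonic bases of SRXN1 and had 20379 counts over the 6 libraries against 21994 for SRXN1. How reads in the shared bases were assigned is not stated. The value may therefore belong to either gene, or the same reads may be counted for both.

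NQO1, HMOX1 and AKR1C1 represent quinone, heme and carbonyl metabolism. NQO1 (chromosome 16, 69706996 to 69726951, minus strand), a quinone reductase, gave 163.4, 162.2 and 162.4 CPM in siNC and 151, 144.4 and 140.4 CPM in siTRAIP. The controls were nearly identical, at a coefficient of variation of 0.42%, and all siTRAIP libraries lay below them. The fold was 0.893, or -0.16 ± 0.04 in log2 units (SE, edgeR adjusted p = 0.0106), which did not pass without siNC replicate 1 (-0.16, adjusted p = 0.0549). An opposite-strand gene, CTD-2033A16.1, covers 17.7% of its exonic bases, with 2681 counts over the 6 libraries against 50035 for NQO1.

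HMOX1 (chromosome 22, 35380361 to 35394214), the inducible heme oxygenase, shares no exonic base with another gene of the table. It gave 45.9, 47.5 and 46.3 CPM in siNC and 37.5, 41.9 and 37.5 CPM in siTRAIP. siTRAIP replicate 2 was the nearest to the controls and still below all of them. With a fold of 0.836, or -0.26 ± 0.05 in log2 units (SE, edgeR adjusted p = 0.00128), it passed in 17 of 17 alternatives, between -0.32 and -0.23.

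AKR1C1 (chromosome 10, 4963253 to 4983283), an aldo-keto reductase, gave 9.89, 11.2 and 11.4 CPM in siNC and 8.38, 9.65 and 8.83 CPM in siTRAIP. The lowest control and the highest knockdown library were close. edgeR put the fold at 0.826, or -0.28 ± 0.09 in log2 units (SE, adjusted p = 0.0327). Of the 50-base stretches of its longest coding transcript 28.7% also occur in transcripts of other genes, led by AKR1C2 and AKR1C3. With the AKR1C family counted as 1 feature, the log2 fold change was -0.25 (adjusted p = 0.0509). AKR1C1 itself did not pass without siNC replicate 2 (-0.25, adjusted p = 0.128) or 3 (-0.24, 0.145), without siTRAIP replicate 1 (-0.24, 0.13) or 3 (-0.26, 0.0588), with DESeq2 (0.0631) and with limma on both RPKM scales (0.111 and 0.0978).

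AKR1B10 (chromosome 7, 134527592 to 134541408), an aldo-keto reductase that is a known NRF2 target in other tumours, had 12 counts over the 3 siNC libraries and 7 over the 3 siTRAIP libraries. Most libraries were at or under 3 counts, so no fold is given and a difference was not detectable at this depth.

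**Figure D2:**
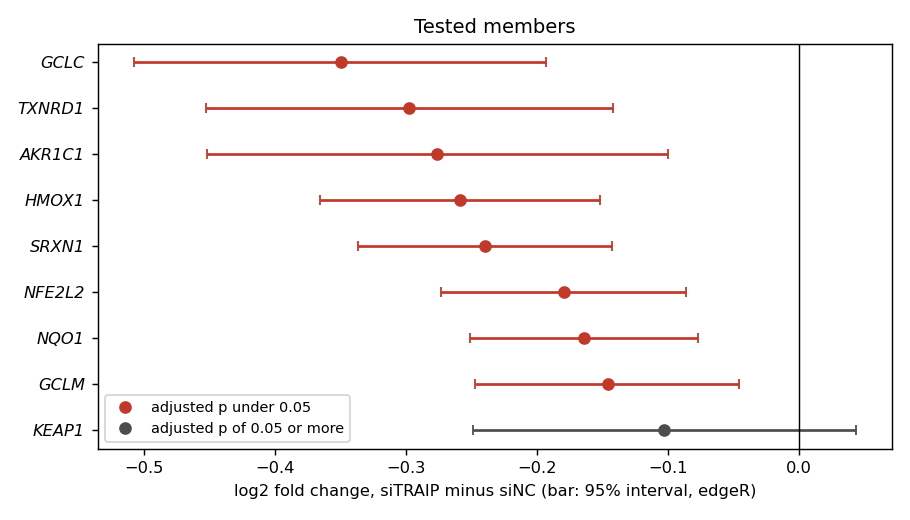
Log2 fold change (siTRAIP minus siNC, edgeR) with its 95% interval for the 9 tested members. All 9 points are below 0, from -0.35 (GCLC) to -0.10 (KEAP1), and the intervals of the members overlap. That of GCLC overlaps only the lower end of those of NFE2L2, NQO1, GCLM and KEAP1.

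On the per-length scale (RPKM, mean over siNC), the members ranked TXNRD1 at 380, NQO1 at 51.0, SRXN1 at 27.5, HMOX1 at 19.8, NFE2L2 at 15.1, GCLM at 7.91, KEAP1 at 4.28, GCLC at 1.91, AKR1C1 at 1.26 and AKR1B10 at 0.0405 RPKM. No neighbours in this order overlapped between libraries, in siNC or in siTRAIP, so the order of RPKM values was the same in both groups. RPKM divides by all exonic bases of the gene model, so this order depends on that length. KEAP1 and GCLC had close CPM means in siNC, 15.78 and 15.85, but gene models of 3761 and 8463 exonic bases. Their longest coding transcripts, of 2955 and 2289 bases, have the opposite order of length. Which length applies in these cells was not tested. The catalytic GCLC had a lower RPKM than the modifier GCLM in all 6 libraries. AKR1C1 and TXNRD1, the tested members with the lowest and highest level, had close log2 fold changes, -0.28 and -0.30.

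**Figure D3:**
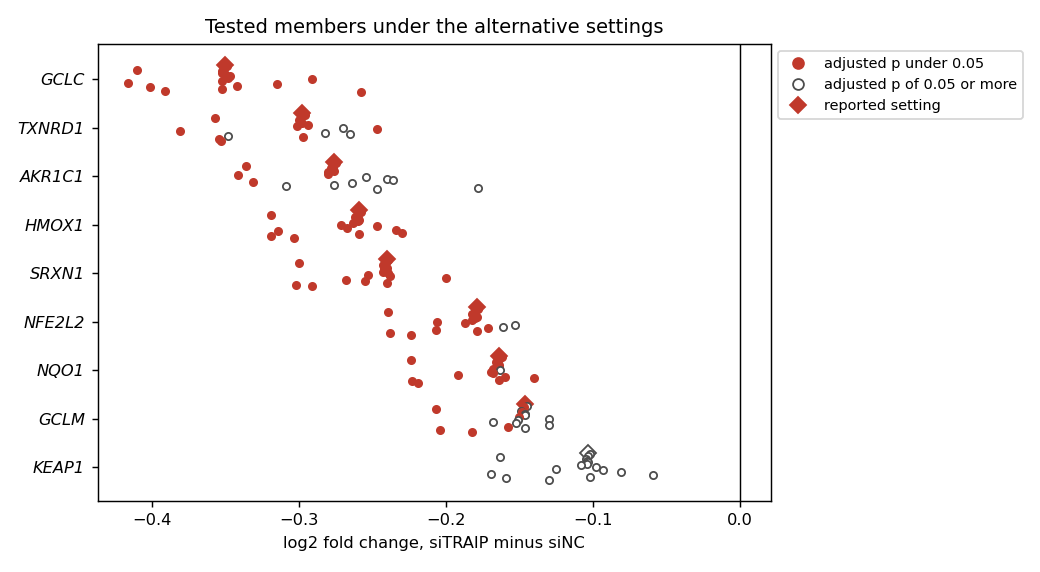
Log2 fold change of each tested member under the reported setting (diamond) and under each alternative (circles; filled where adjusted p was under 0.05). All values lie below 0; GCLC, HMOX1 and SRXN1 are filled throughout, and GCLM and AKR1C1 have many open circles.

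An earlier examination of these data had tied the 7-base words ACAGTCT and CAGTCTA to genes that fell, and TCGGAGA and CGGAGAA to genes that rose. In the coding sequence and what follows it in the longest coding transcript, 0 of the 9 tested members held any of these 4 words. ACAGTCT or CAGTCTA occurred in 28.2% of 9194 expressed protein-coding genes searched and in 45.0% of the 804 of them called lower. TCGGAGA or CGGAGAA occurred in 18.8% of the genes searched, in 32.9% of the 1118 called higher and in 13.9% of those called lower. The words had been chosen on fold changes of these same data, which include the members and the genes called here. Their higher share among called genes follows from that choice and is not separate evidence.

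Each pathway list is to be read against all tested genes, of which 7.47% were called higher and 5.34% lower. These shares include genes with few counts and were not matched for level. Of the 9194 expressed protein-coding genes searched above, 1118 were called higher and 804 lower. Among 16 regulators and partners of NRF2, all tested, 1 rose and 4 fell. SQSTM1, which encodes the p62 receptor that binds KEAP1 and is itself an NRF2 target, fell from 282 ± 6.15 to 199 ± 9.63 CPM (SD, n = 3 each), or by -0.50 ± 0.04 in log2 units (SE, edgeR adjusted p = 2.1e-08). Genes on the opposite strand cover 22.0% of its exonic bases. MAFG, a small MAF partner, stood at 56.3 to 57.0 CPM in siNC and 48.5 to 49.9 CPM in siTRAIP, a difference of -0.20 ± 0.05 in log2 units (SE, edgeR adjusted p = 0.0034). Other genes, among them SIRT7 on the same strand, share 6.3% of the exonic bases of MAFG. BACH2, a repressor of the same element family, differed by -0.79 ± 0.17 in log2 units (SE, edgeR adjusted p = 0.00253) at only 1.36 to 3.03 CPM. With limma it did not pass on either RPKM scale, at -0.56 with a pseudocount of 0.1 and -0.14 with a pseudocount of 1 (adjusted p = 0.0617 and 0.0649). NFE2L1, the related factor NRF1 that drives proteasome genes, moved the other way, from 379 ± 8.84 to 525 ± 10.0 CPM (SD, n = 3 each), or by 0.47 ± 0.04 in log2 units (SE, edgeR adjusted p = 2.1e-08).

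Of 21 tested genes of glutathione synthesis and use 6 fell and none rose, and 1 was higher at an unadjusted p under 0.05 in edgeR. None was called higher by DESeq2 or by limma. SLC7A11, the cystine carrier of the xCT exchanger, gave 119, 112.3 and 108.5 CPM in siNC and 86.1, 86.2 and 89.5 CPM in siTRAIP. All knockdown libraries were far below the controls. The difference was -0.38 ± 0.05 in log2 units (SE, edgeR adjusted p = 2.86e-06). Its heavy chain SLC3A2 had a log2 fold change of -0.21 (edgeR adjusted p = 0.00203), and glutathione synthetase, GSS, which acts after glutamate-cysteine ligase, one of -0.27 (edgeR adjusted p = 8.76e-04). GSTO1, an omega-class transferase, had one of -0.18 (edgeR adjusted p = 0.00538), which did not pass without siNC replicate 1 (-0.16, adjusted p = 0.0558). The antisense gene SLC7A11-AS1 covers 8.97% of the exonic bases of SLC7A11. The median log2 fold change of the list was -0.15.

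The thioredoxin and peroxiredoxin list was mixed, with 2 rises and 3 falls among 16 tested genes. TXN, thioredoxin itself, went from 136 ± 2.91 to 116 ± 2.94 CPM (SD, n = 3 each; log2 fold change -0.22, edgeR adjusted p = 7.24e-04). PRDX6, a peroxiredoxin recycled by glutathione, had a log2 fold change of -0.23 (edgeR adjusted p = 0.002). TXNIP, the thioredoxin-binding inhibitor, rose by 0.25 (edgeR adjusted p = 0.00191) and PRDX4, the peroxiredoxin of the endoplasmic reticulum, by 0.29 (edgeR adjusted p = 6.07e-04) on the log2 scale. TXN has 7 annotated genes named as its pseudogenes, which leaves its count uncertain.

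Of 10 NADPH supply genes 4 fell and 1 rose. Those described here are IDH1, the cytosolic isocitrate dehydrogenase (log2 fold change -0.28, edgeR adjusted p = 2.75e-04), and the pentose phosphate genes PGD (-0.21, adjusted p = 0.00181) and TALDO1 (-0.16, adjusted p = 0.0131). NNT, the mitochondrial transhydrogenase, rose by 0.18 (edgeR adjusted p = 0.0159). NNT did not pass on total counts alone (0.12, adjusted p = 0.112), on both RPKM scales (0.12 and 0.10, adjusted p = 0.172 and 0.179), without siNC replicate 1 (0.19, adjusted p = 0.0569) or 2 (0.16, adjusted p = 0.098) and without siTRAIP replicate 1 (0.17, adjusted p = 0.0665). TALDO1 did not pass without siNC replicate 2 (-0.16, adjusted p = 0.0701).

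Heme and iron genes held 2 falls and no rise among 11 tested, both in ferritin, the iron store. The heavy chain FTH1 went from 770 ± 15.2 to 659 ± 27.3 CPM (SD, n = 3 each; log2 fold change -0.23, edgeR adjusted p = 6.99e-04). The light chain FTL had a log2 fold change of -0.17 (edgeR adjusted p = 0.0292). It did not pass when siNC replicate 1 (-0.13, adjusted p = 0.203) or 3 (-0.18, adjusted p = 0.066) or siTRAIP replicate 1 (-0.17, adjusted p = 0.0932) or 3 (-0.13, adjusted p = 0.0667) was left out, nor with limma on either RPKM scale (-0.23 on both, adjusted p = 0.0595 and 0.0617). BEST1, which lies on the other strand, covers 62.4% of the exonic bases of FTH1. It had 185031 counts over the 6 libraries against 232418 for FTH1. In addition, 25 and 16 annotated genes are named as pseudogenes of FTH1 and FTL, so both counts are uncertain. No gene of the list was higher at an unadjusted p under 0.05 in edgeR or by DESeq2 or limma.

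Of 20 tested genes of quinone, carbonyl and xenobiotic metabolism 7 fell and none rose, with none higher at an unadjusted p under 0.05 in edgeR or by DESeq2 or limma. On total counts alone 12 were called lower. OSGIN1, an oxidative stress-induced growth inhibitor gene, gave 9.19, 9.43 and 8.91 CPM in siNC and 5.48, 5.74 and 5.89 CPM in siTRAIP. The difference, -0.68 ± 0.09 in log2 units (SE, edgeR adjusted p = 6.91e-06), had a larger size than that of any tested member, and the gap to them was not tested. The tripartite motif genes TRIM16L and TRIM16, which are similar in sequence, had log2 fold changes of -0.42 (edgeR adjusted p = 2.1e-05) and -0.26 (edgeR adjusted p = 5.12e-04). UGDH, which makes the sugar donor for glucuronidation, went from 128 ± 1.59 to 99.0 ± 0.623 CPM (SD, n = 3 each; log2 fold change -0.37, edgeR adjusted p = 1.11e-06). Other genes share 28.7% of the exonic bases of TRIM16 and 13.9% of those of OSGIN1.

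Of the 4 superoxide and peroxide enzyme genes (SOD1, SOD2, SOD3 and CAT) 3 were tested, and none passed in edgeR, at an unadjusted p under 0.05 or by DESeq2 or limma. Their log2 fold changes ran from -0.06 to 0.08, and SOD3 was under the count filter. Over the 7 pathway lists together, 97 of 102 genes were tested, of which 26 fell and 4 rose (5.34% and 7.47% over all tested genes), with a median log2 fold change of -0.09 and a range from -0.79 to 0.47. The lists were drawn from textbook knowledge with earlier results known, and are described, not tested, as sets.

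**Figure D4:**
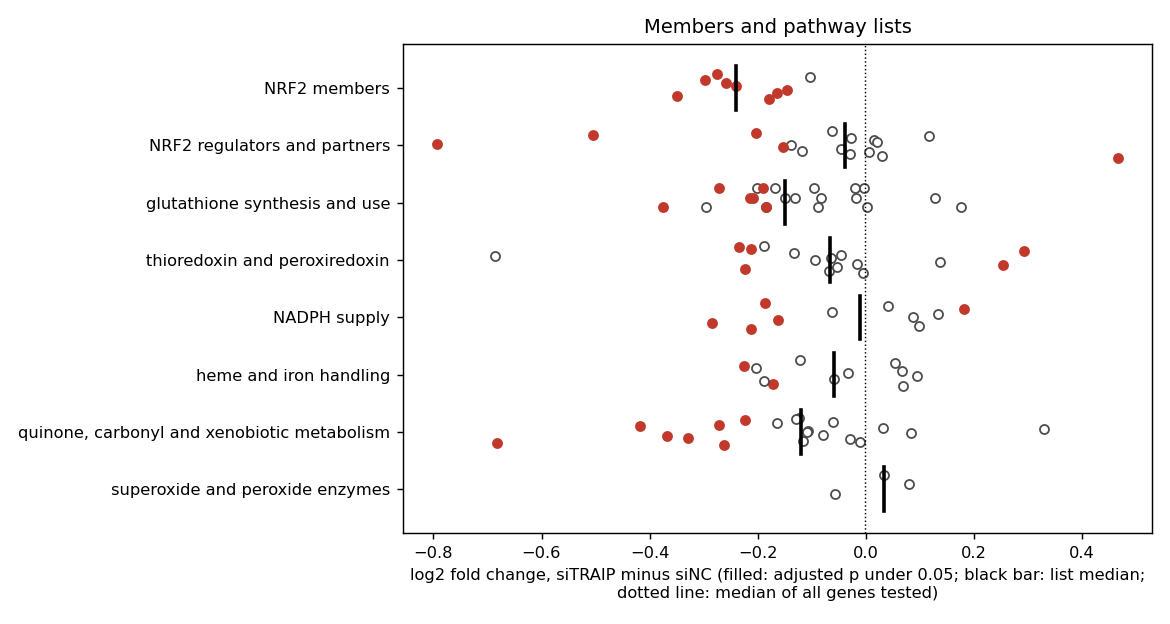
Log2 fold change of every tested gene in the member list and 7 pathway lists (filled red: adjusted p under 0.05, edgeR; black bar: list median; dotted line: median of all genes). The members have a median of -0.24, the glutathione list -0.15 and the superoxide and peroxide list 0.03, and NFE2L1, TXNIP, PRDX4 and NNT are the filled points on the right.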

How the data were processed

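RNA-seq of 6 T24 libraries, 3 siNC and 3 siTRAIP, was analysed; groups came from the sample titles. The labels' protocols give TRIzol extraction and a stranded mRNA kit. The authors deposited raw counts per gene and RPKM values, the latter equal to the count per length and per total gene count within a relative difference of 1.3e-06. Tools listed in the submitters' processing notes are featureCounts, Subread 1.5.1 and Trimmomatic 0.36, with the build GRCh38; for the aligner, annotation and counting options, nothing is stated there or in the labels. Among counts from 1 to 10, 70.2% were even, against 50.8% above 1000, so halved counts were also run.

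The counts were tested with edgeR 4.0.16 in R 4.3.3 (filterByExpr, TMM, robust quasi-likelihood fit, 2-sided F-test, Benjamini-Hochberg adjustment over 18685 genes, threshold 0.05); SE is the log2 fold change divided by the square root of F. The fit was tested on simulated data. Alternatives used DESeq2 1.42.0, limma 3.58.1 on log2(RPKM + 0.1) and log2(RPKM + 1), other size factors and filters, the replicate number as a block, and each library left out. Exon overlaps come from the deposited gene models, transcripts and pseudogene names from GENCODE v29, and promoters from RefSeq. Members and lists were chosen with earlier results of these data known. Named genes are TRAIP, all members and, per pathway list, up to 4 called genes with the smallest adjusted p plus called genes that moved against their list. For 1 such gene no values are given.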

Additional observations from a re-analysis of the deposited data

How the results depend on the processing

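Members had 154 values under alternatives: 129 left the call as it was, 25 ended it, and none added a call or changed sign. TRAIP and the named pathway genes had 408, of which 19 ended a call, 389 left it as it was and none changed sign. Leaving out 1 library, which leaves fewer samples in the fit, gave 4 to 6 members called lower, 1480 to 2622 genes called, 878 to 1471 higher and 602 to 1151 lower. On total counts alone, which leaves out the TMM factors (1.011 to 1.029 in siNC, 0.971 to 0.987 in siTRAIP), 838 genes were higher and 2050 lower, against 1396 and 997 with them; the median of all genes shifted to -0.06, and 8 members remained called lower and none higher. With limma, 1521 genes were called and 454 were higher on log2(RPKM + 0.1), and 1517 and 450 on log2(RPKM + 1); both RPKM scales also leave out these factors, and how far this accounts for the counts was not tested. A replicate block on the labels' numbers gave 2145 called genes and 7 members lower. Libraries with the same number had deviations from their group means with correlations of -0.0076, -0.018 and 0.0014, each library being closest to one of another number, so the numbers were not treated as pairs. Depth limits AKR1B10 most, at 19 counts in all.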
